A study of Homo sapiens with 6 samples.

Results

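Serpins are a superfamily of proteins that mostly inhibit serine proteases, by presenting a loop that the protease cuts and that then traps the enzyme in a stable complex. In the plasminogen activator system, tissue-type activator (PLAT) and urokinase (PLAU) convert plasminogen (PLG) to plasmin, a protease that dissolves fibrin and degrades matrix, while the receptor PLAUR holds urokinase at the cell surface and several serpins inhibit both activators. In melanoma this system has long been studied for its part in matrix breakdown and cell movement. A symbol that begins with SERPIN or is PLAU, PLAUR, PLAT or PLG was held by 38 protein-coding genes of the count table, of 19986 protein-coding genes and 58870 genes in all, and 37 of them are described here. They were picked by name, a rule that uses no measured value although earlier results of these data were known when it was set, and were compared between the study's groups.

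RNA was sequenced from the established human melanoma line WM164, with 3 libraries of cells overexpressing green fluorescent protein (GFP) as the control and 3 of cells overexpressing T-MGM, in which MAFG and the melanocyte isoform of MITF are fused through a flexible linker into a tethered dimer. The study describes these constructs as lentiviral, with antibiotic selection of the cell population, so both groups were transduced cells of a single line. Nothing in the labels says that the replicates were separate cultures, and p-values therefore measure the spread between these libraries, which may be technical. Total counts were 35057239 to 38738065 in GFP and 44577774 to 59250663 in the T-MGM-labelled libraries. MAFG was not raised in the counts (log2 fold change of -0.06) and MITF was raised by only 0.08, so neither can check the labels. The 10 melanocytic marker genes examined, of which TYRP1 was near 0, had a summed abundance of 1174 to 1196 TPM, a transcript abundance scaled for length and depth, in GFP and 998 to 1037 TPM in the T-MGM-labelled libraries. Of these markers 3 were higher and 4 lower at an adjusted p of 0.05, from SOX10 (0.11 on the log2 scale) to DCT (-2.49).

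Most of the family was silent. Of the 37 genes, 11 had no count in any library, 9 had at most 3 counts in any library and 3 (SERPINF2, SERPINB9 and SERPING1) had a highest count of 5 to 13, which left 14 that averaged at least 10 normalized counts. Counts were scaled for depth with DESeq2 size factors (normalized counts) and tested gene by gene over the whole table, with Benjamini-Hochberg adjustment, and folds are T-MGM over GFP. An adjusted p was obtained for 17 of the 37. Of these, 10 passed 0.05, 9 of them higher in the T-MGM-labelled libraries and only SERPINA5 lower, where 38.4% of all tested genes passed, 19.2% upwards and 19.2% downwards. Among tested genes averaging at least 10 normalized counts, as all 10 did, 46.3% passed. A call also required a change over 2-fold: 2 of the genes, SERPINA1 and SERPIND1, met this, both higher, where 4.63% of all tested genes were called and 3.26% were called higher. None was called lower by DESeq2 or edgeR. With every library kept, none fell by over 2-fold at an unadjusted p under 0.05, whereas 1 did without T-MGM replicate 2. For 12 of the 17 genes the 2 groups were fully separated in normalized counts, where the background was 46.8%. The median log2 fold change was 0.20 over the 17 and -0.0027 over all tested genes, and genes were admitted to the test by their counts, so that these figures describe the expressed part of the family alone.

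**Figure D1:**
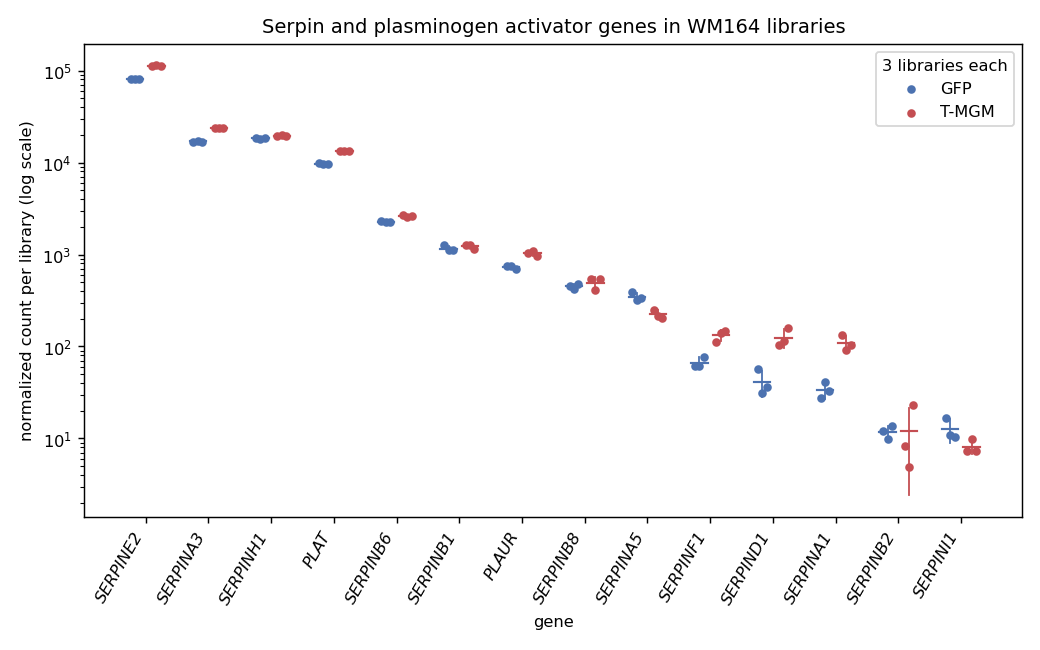
Normalized counts (log scale) of the 14 genes that averaged at least 10, in the 3 GFP (blue) and 3 T-MGM (red) libraries; points are libraries, horizontal lines are means and vertical lines are 1 SD. SERPINE2 lies highest, with 81219 in GFP and 112567 in the T-MGM-labelled libraries, and the groups overlap for SERPINB1, SERPINB8 and SERPINB2.

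The activators and their receptor were examined first. PLAT (ENSG00000104368.17, chromosome 8, 42174718 to 42207709, GRCh38) encodes tissue-type plasminogen activator and was the only activator gene with any counts. It had 9777, 9740 and 9600 normalized counts in GFP and 13240, 13244 and 13351 in the T-MGM-labelled libraries. The 3 T-MGM-labelled libraries lay above the 3 GFP libraries, and the rise was 1.37-fold (0.45 on the log2 scale with an SE of 0.02, adjusted p = 1.16e-128 by DESeq2). PLAU, the urokinase gene, and PLG, the plasminogen gene, had 0 counts in all 6 libraries. A count of 0 allows up to 3 counts, or 0.0506 to 0.0856 CPM (counts scaled to the library total), in a library, and neither transcript was detectable at this depth. Such limits reflect counting error alone, because the reads carried no molecular identifiers and are not independent molecules.

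PLAUR (ENSG00000011422.12, chromosome 19, 43646095 to 43670547), the urokinase receptor, had 759, 758 and 704 normalized counts in GFP and 1027, 1086 and 973 in the T-MGM-labelled libraries. No library of either group overlapped the other, and the rise was 1.39-fold (0.47 on the log2 scale with an SE of 0.07, adjusted p = 2.68e-11 by DESeq2). The receptor was transcribed, and rose, where no transcript of its ligand was detected. The 54 tested neighbours of PLAT within 5 Mb had a median log2 fold change of 0.13 and the 232 neighbours of PLAUR a median of 0.11, against 0.45 and 0.47 for the genes themselves.

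The inhibitors of the activators were led by SERPINE2 (ENSG00000135919.13, chromosome 2, 223975045 to 224039318), which encodes protease nexin, a cell- and matrix-bound inhibitor of thrombin, urokinase and tissue-type activator. It had 81503, 81364 and 80790 normalized counts in GFP and 112581, 113579 and 111541 in the T-MGM-labelled libraries. The spread within each group was small and the groups were far apart, so that the adjusted p of the 1.39-fold rise (95% limits 1.36 to 1.41, log2 change of 0.47) was given as 0 by DESeq2, being below the smallest number it can hold. Its 55 tested neighbours within 5 Mb had a median log2 fold change of -0.02. By mean TPM, which allows levels of different genes to be compared, SERPINE2 stood at rank 65 of the 19986 protein-coding genes, at 846 ± 4.62 TPM in GFP and 1041 ± 21.2 TPM in the T-MGM-labelled libraries (SD, n = 3 each).

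The start sites of these genes were searched for the short sequences that the factors in the construct are known to bind. The 250 bases before each RefSeq gene start (GRCh38.p14) were read on both strands for the E-boxes CACGTG and CATGTG bound by MITF, the core Maf site TGCTGA, the antioxidant response core TGACNNNGC bound by small MAF dimers, and the AP-1 site TGANTCA. Of all 35116 such windows, these letters stood in 6.34%, 9.42%, 14%, 10.9% and 6.57%, in that order. RefSeq windows were held for 30 of the 37 genes and for 12 of the 14 well-measured ones (18 windows, 7 with a match), and PLAT and SERPINF1 had no entry. The window before the inner start of SERPINE2 held 1 CACGTG, 5 CATGTG on the opposite strand (read as CACATG) and 2 TGACNNNGC on the opposite strand, each of which shares its last 2 letters with an E-box. It is shown because it held the most matches; it lies on chr2:224031479-224031728, minus strand, and capitals mark the matches.
SERPINE2 inner start: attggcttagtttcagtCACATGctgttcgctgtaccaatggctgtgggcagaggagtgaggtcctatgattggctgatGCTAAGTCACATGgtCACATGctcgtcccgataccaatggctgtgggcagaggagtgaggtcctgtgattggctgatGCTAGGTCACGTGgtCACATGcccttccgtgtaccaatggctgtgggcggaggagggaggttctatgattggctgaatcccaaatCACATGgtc
The E-boxes stand 233, 164, 156, 87, 79 and 9 bases before the start. The window repeats itself with a shift of 77 bases (73.4% identity over 173 bases), so that these matches are not independent of each other. The window before the outer SERPINE2 start held none of the 5 motifs. A match describes letters in a window and is not evidence of binding, and which start was used in WM164 cannot be read from gene counts.

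SERPINA5 (ENSG00000188488.14, chromosome 14, 94561442 to 94593118), the protein C inhibitor, which also acts on urokinase, was the 1 gene of the 14 that passed in the other direction. It had 390, 317 and 337 normalized counts in GFP and 252, 217 and 204 in the T-MGM-labelled libraries. Every T-MGM-labelled value was below every GFP value, and it fell by 0.63 on the log2 scale (SE of 0.13, adjusted p = 2.16e-06 by DESeq2), to 0.644 of the GFP level. The median of its 66 neighbours was 0.19 in the opposite direction. The annotation places a read-through gene (ENSG00000273259) over both SERPINA5 and SERPINA3 on the same strand, which rose by 0.55 on the log2 scale (SE of 0.06, adjusted p = 6.94e-18 by DESeq2), so the split of reads among the 3 is uncertain.

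Other inhibitors of the activators were near the limit of detection. SERPINB2, an inhibitor of urokinase that is mostly kept inside the cell, had 12, 9.74 and 13.7 normalized counts in GFP and 8.21, 4.88 and 22.9 in the T-MGM-labelled libraries. The groups overlapped, and the 95% limits of the change ran from 0.424-fold to 2.52-fold (0.05 on the log2 scale with an SE of 0.66, adjusted p = 0.969 by DESeq2); without T-MGM replicate 3 the log2 value was -0.85. SERPINI1, neuroserpin, which inhibits tissue-type activator in the nervous system, had 16.8, 10.8 and 10.3 against 7.30, 9.76 and 7.38 normalized counts, with limits of 0.272-fold to 1.53-fold (adjusted p of 0.490 in DESeq2). The SERPINI1 groups did not overlap in normalized counts, at -0.64 on the log2 scale with an SE of 0.64. At this depth the test detected no difference for either gene. SERPINF2, which inhibits plasmin itself, had 4, 3 and 13 counts in GFP and 1, 6 and 0 in the T-MGM-labelled libraries, and no fold is given.

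**Figure D2:**
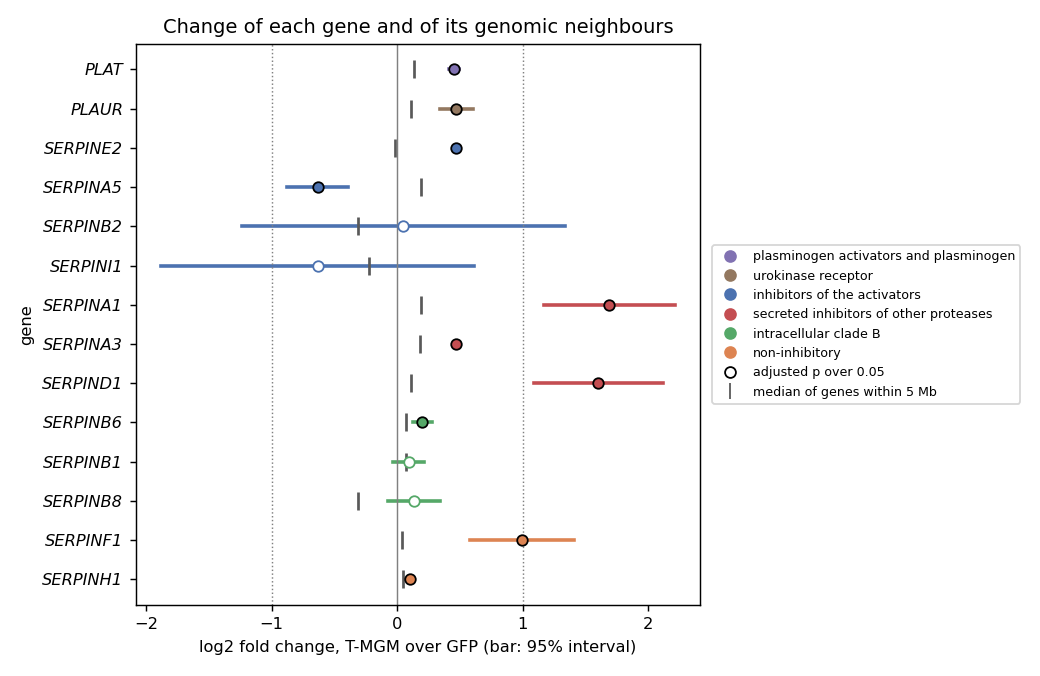
Log2 fold change (T-MGM over GFP) of the 14 genes with 95% intervals, colored by role, with open circles for an adjusted p over 0.05 and gray ticks for the median of the tested genes within 5 Mb. SERPINA1 (1.69) and SERPIND1 (1.60) lie farthest right, SERPINA5 (-0.63) lies left of 0 with an interval that leaves out 0, and the tick of SERPINA5 stands on the other side, at 0.19.

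Among 8 secreted inhibitors of other proteases, 3 averaged at least 10 normalized counts and all 3 rose, where 19.2% of all tested genes rose. Of tested genes at that level, 46.3% passed in either direction. SERPING1 of this group was tested as well and did not pass (adjusted p of 0.226 in DESeq2). It had 5, 5 and 3 counts in GFP and 1, 0 and 3 in the T-MGM-labelled libraries. SERPINA1 (ENSG00000197249.13, chromosome 14, 94376747 to 94390693) encodes alpha-1-antitrypsin, the main inhibitor of neutrophil elastase in blood. It had 27.6, 41.1 and 33.1 normalized counts in GFP and 133, 92.7 and 104 in the T-MGM-labelled libraries. The lowest of the latter was above the highest of the former, and this was the largest fold of the 14 genes, at 3.23-fold (95% limits 2.25 to 4.63, 1.69 on the log2 scale with an SE of 0.27, adjusted p = 1.56e-09 by DESeq2). Neither RefSeq window before a SERPINA1 start held any of the 5 motifs. SERPINA3 (ENSG00000196136.17, chromosome 14, 94612384 to 94624055) encodes antichymotrypsin, an acute-phase inhibitor of cathepsin G. It had 16896, 17235 and 16862 normalized counts in GFP and 23502, 23574 and 23626 in the T-MGM-labelled libraries, which did not overlap. The rise was 1.39-fold (0.47 on the log2 scale with an SE of 0.02, adjusted p = 4.42e-204 by DESeq2), the same size as that of SERPINE2 in this fit. After correction for GC content and length the log2 values were 0.41 for SERPINA3 and 0.58 for SERPINE2.

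SERPIND1 (ENSG00000099937.11, chromosome 22, 20774113 to 20787720) encodes heparin cofactor II, an inhibitor of thrombin. It had 56.4, 31.4 and 36.6 normalized counts in GFP and 103, 114 and 157 in the T-MGM-labelled libraries. The lowest T-MGM-labelled value was above the highest GFP value, at 3.04-fold (95% limits 2.13 to 4.33, 1.60 on the log2 scale with an SE of 0.26, adjusted p = 6.82e-09 by DESeq2). The gene lies within PI4KA on the opposite strand, and PI4KA itself changed from 7675 ± 94.9 to 9311 ± 164 normalized counts (SD, n = 3 each), by 0.28 on the log2 scale. The labels and the study's methods name library kits without and with strand information, so the part of PI4KA reads in the SERPIND1 count was not tested. Its window on chr22:20773863-20774112, plus strand, is shown because it held a core Maf site and an antioxidant response core that overlap by 3 letters, 119 and 116 bases before the start, in capitals.
SERPIND1 start: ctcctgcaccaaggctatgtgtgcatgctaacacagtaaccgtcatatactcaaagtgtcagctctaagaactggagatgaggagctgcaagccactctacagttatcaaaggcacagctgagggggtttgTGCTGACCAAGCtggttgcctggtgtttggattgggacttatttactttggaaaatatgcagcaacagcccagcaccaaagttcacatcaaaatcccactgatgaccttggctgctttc
SERPINA3 and PLAUR, which rose as well, each held a single match, shown in 30 bases for comparison, while 1 of the 4 SERPINB6 windows held a pair of CATGTG matches and those of SERPINA1 and SERPINH1 held none. SERPINA3 had the core Maf site on the opposite strand, 19 bases before the start (chr14:94612361-94612390, plus strand), and PLAUR had an AP-1 site 186 bases before the start (chr19:43670337-43670366, minus strand). In the annotation the PLAUR stretch lies within an exon of PLAUR and the SERPINA3 stretch within an exon of the read-through gene.
SERPINA3: ataaataagccTCAGCAttcatgaaaatcc
PLAUR: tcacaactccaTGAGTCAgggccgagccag
The 18 windows of the well-measured genes held CACGTG in 1, CATGTG in 3, TGCTGA in 2, TGACNNNGC in 2 and TGANTCA in 3.

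The 9 clade A genes of chromosome 14 lie within 344 kb, and 3 of them were expressed. SERPINA5 and SERPINA3 are 19.3 kb apart with no protein-coding gene between them, yet the first fell and the second rose. SERPINA1, 171 kb from SERPINA5, rose. SERPINA4, SERPINA6, SERPINA9, SERPINA10, SERPINA11 and SERPINA12 had at most 2 counts in any library. Many clade A serpins are plasma proteins made in the liver, and the 6 hepatocyte markers examined (ALB, APOA1, TTR, FGB, APOC3 and HP) summed to 0.02 to 0.11 TPM in GFP and 0 to 0.14 TPM in the T-MGM-labelled libraries.

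**Figure D3:**
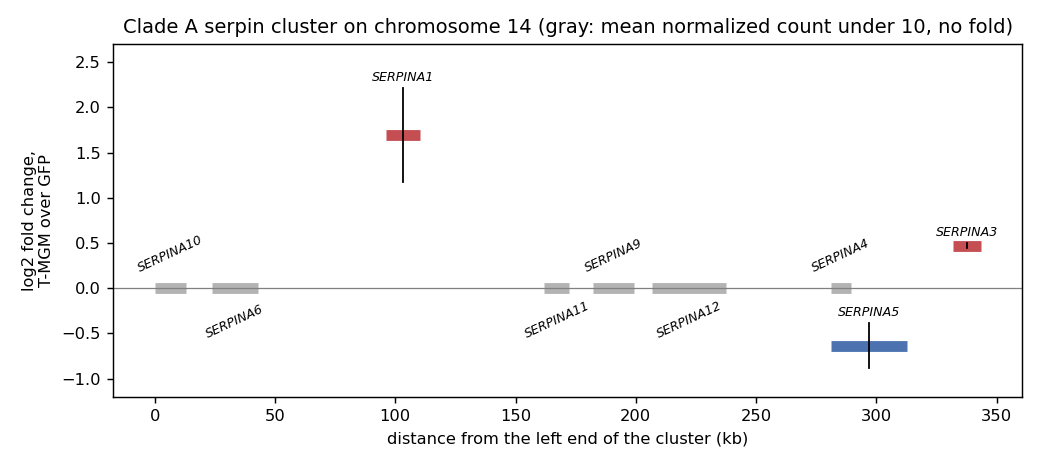
Clade A serpin cluster of chromosome 14 drawn to scale, with distance from its left end in kb on the horizontal axis and log2 fold change (T-MGM over GFP) on the vertical axis; black lines are 95% intervals and gray bars are genes averaging under 10 normalized counts, drawn at 0 without a fold. SERPINA1 (1.69) and SERPINA3 (0.47) stand above 0 and SERPINA5 (-0.63) below it.

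Clade B serpins lack a classical secretion signal and mostly protect cells from their own or neighbouring proteases. Of 12 genes other than SERPINB2, 3 were well measured and 1 of these passed. Of all tested genes 38.4% passed, and 46.3% of those averaging at least 10 normalized counts. SERPINB9, with fewer counts, was tested as well and did not pass (adjusted p of 0.404 in DESeq2). SERPINB6 (ENSG00000124570.19, chromosome 6, 2948159 to 2972165), an inhibitor of cathepsin G, had 2294, 2257 and 2244 normalized counts in GFP and 2658, 2546 and 2606 in the T-MGM-labelled libraries. The groups did not overlap, but the rise was only 1.15-fold (0.20 on the log2 scale with an SE of 0.04, adjusted p = 7.03e-07 by DESeq2). SERPINB1, which inhibits neutrophil elastase and lies 106 kb away, had 1258, 1111 and 1106 against 1267, 1279 and 1158 normalized counts. Its groups overlapped, and the change had 95% limits of 0.979-fold to 1.16-fold (adjusted p of 0.266 in DESeq2). After correction for GC content and length the log2 value was 0.15 with an adjusted p of 0.0470 in DESeq2, and over all alternatives its adjusted p ran from 0.0470 to 1. SERPINB8, an inhibitor of furin, had 457, 420 and 479 in GFP and 536, 409 and 538 in the T-MGM-labelled libraries, again with overlap (0.13 on the log2 scale with an SE of 0.11, adjusted p = 0.359 by DESeq2). Without T-MGM replicate 2 the log2 value was 0.25, with an adjusted p of 0.0431 in DESeq2, and over all alternatives its adjusted p ran from 0.0431 to 1.

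SERPINB8 and SERPINB2 belong to the chromosome 18 cluster of 10 clade B genes within 543 kb. The 26 tested genes within 5 Mb of SERPINB8 had a median log2 fold change of -0.32, the lowest around any of the 14 genes together with that around SERPINB2, and of -0.19 after correction for GC content and length. The other 8 genes of the cluster, among them SERPINB5 (maspin) and the squamous cell antigens SERPINB3 and SERPINB4, had at most 1 count in any library. SERPINB9, the granzyme B inhibitor, had 2, 2 and 1 counts in GFP and 2, 4 and 13 in the T-MGM-labelled libraries, so that a single library supplied most of its reads.

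The non-inhibitory members separated into a nearly steady and a rising gene. SERPINH1 (ENSG00000149257.14, chromosome 11, 75562056 to 75572783), the collagen chaperone HSP47 of the endoplasmic reticulum, had 18448, 18015 and 18305 normalized counts in GFP and 19447, 19776 and 19428 in the T-MGM-labelled libraries. The groups did not overlap, but the difference was 1.07-fold (0.10 on the log2 scale with an SE of 0.02, adjusted p = 6.09e-09 by DESeq2), was 0.01 after correction for GC content and length, and turned to -0.07 in TPM values. SERPINF1 (ENSG00000132386.11, chromosome 17, 1762029 to 1777565), pigment epithelium-derived factor, a secreted inhibitor of vessel growth, had 61.2, 60.6 and 77.7 normalized counts in GFP and 111, 140 and 146 in the T-MGM-labelled libraries. The groups did not overlap, and the rise of 1.99-fold (95% limits 1.49 to 2.66) was just under the threshold (SE 0.21 on the log2 scale, DESeq2 adjusted p of 1.38e-05). It counted as over 2-fold without GFP replicate 3 or T-MGM replicate 1 and with TMM factors, and it did not pass in the 3 TPM fits (adjusted p of 0.122 to 0.344 in limma, and over all settings from 1.08e-05 to 1). The hormone carriers SERPINA6 and SERPINA7 had at most 3 counts.

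**Figure D4:**
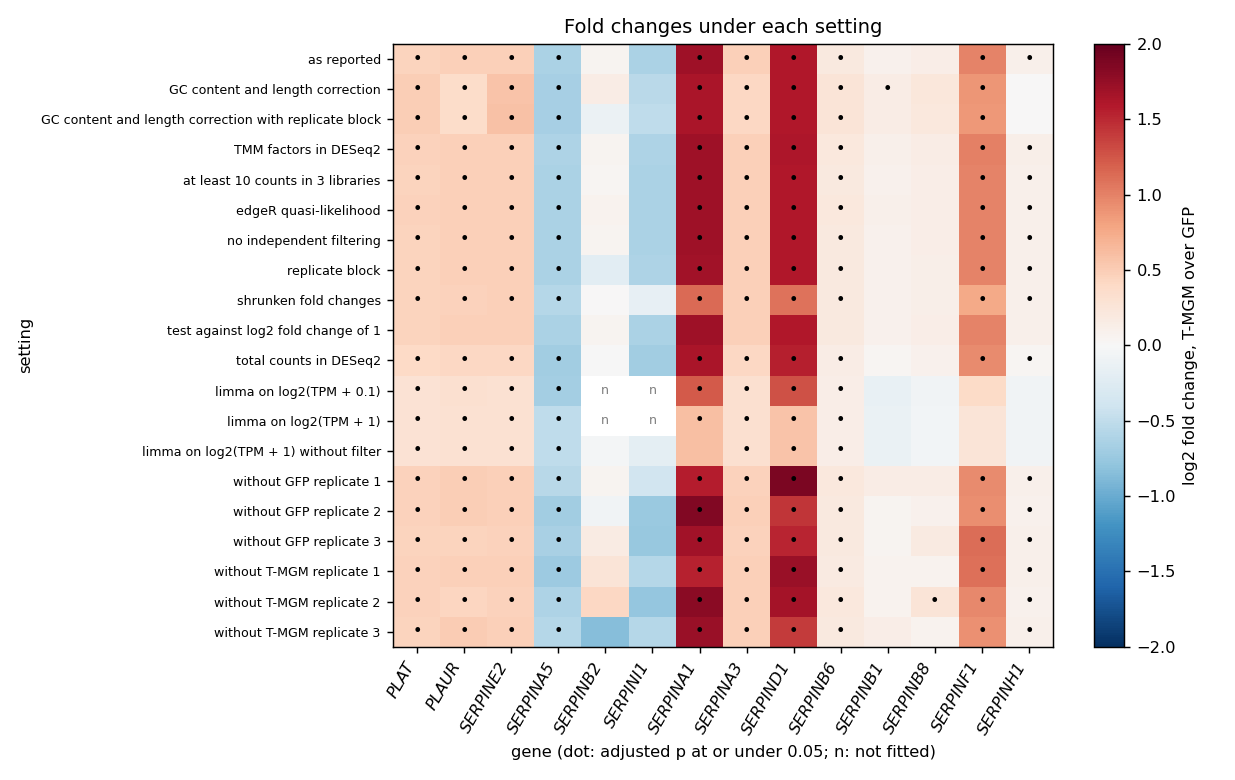
Log2 fold change (T-MGM over GFP, color scale from -2 to 2) of the 14 genes under each processing setting, with a dot for an adjusted p at or under 0.05 and n where the gene was not fitted. Columns of PLAT, PLAUR, SERPINE2, SERPINA1, SERPINA3, SERPIND1, SERPINB6 and SERPINF1 stay red and that of SERPINA5 stays blue in every setting. That of SERPINI1 stays blue where it was fitted, whereas SERPINH1, SERPINB1, SERPINB8 and SERPINB2 change sign.

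Measured per length, transcripts of the 33 serpins described summed to 1309, 1320.0 and 1314 TPM in GFP and 1568, 1590.0 and 1532 TPM in the T-MGM-labelled libraries. SERPINE2 alone made up 64.3% to 64.4% of this sum in GFP and 66.5% to 66.8% in the T-MGM-labelled libraries. The order of mean TPM in GFP was SERPINE2 (846), SERPINA3 (239), SERPINH1 (178), PLAT (80.3), SERPINB6 (27.8), PLAUR (13.4) and SERPINB1 (13.3), and the other genes were under 4 TPM. PLAUR and SERPINB1 did not differ beyond their spread in GFP (SD of 0.641 and 1.60 TPM), while in the T-MGM-labelled libraries PLAUR was at 16.7 ± 1.19 and SERPINB1 at 12.05 ± 1.36 TPM (SD, n = 3 each). The ratio of SERPINE2 to PLAT in TPM was 10.4, 10.5 and 10.7 in GFP and 10.7, 10.7 and 10.3 in the T-MGM-labelled libraries, with overlap. These values are descriptions on a scale that shifts between groups: the abundant RNA RN7SL1 took 134141 to 138057 TPM in GFP and 158142 to 161371 TPM in the T-MGM-labelled libraries, and the median gene, among those averaging at least 50 normalized counts, changed by -0.13 (log2) in TPM plus 1 and by -0.01 in counts. The rise of SERPINE2 in TPM (845.8 to 1041, or 1.23-fold) was smaller than in counts. On log2(TPM + 1), where the added 1 compresses low genes, the log2 changes were 0.61 for SERPINA1 and 0.58 for SERPIND1.

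Other genes of the plasminogen pathway moved in the same comparison. Of 42 receptors, cofactors, clearance receptors, inhibitors and substrates analysed, 29 were tested, 15 rose and 2 fell at an adjusted p of 0.05. Of all tested genes 38.4% passed, and 46.3% of those averaging at least 10 normalized counts. The median log2 fold change of the 29 was 0.23. On log2(TPM + 1), with low genes left out, the split was 8 higher and 4 lower. ITGA3, an integrin subunit that pairs with the urokinase receptor at the cell surface, had 2792, 2700 and 2686 normalized counts in GFP and 7627, 7699 and 7824 in the T-MGM-labelled libraries (1.5 on the log2 scale with an SE of 0.03, adjusted p given as 0 by DESeq2). LRP2, or megalin, an endocytic receptor for serpin complexes, was at 20.9 ± 2.83 normalized counts in GFP and 88.4 ± 6.71 in the T-MGM-labelled libraries (SD, n = 3), higher by 2.08 on the log2 scale. F2RL1, a protease-activated receptor, rose by 1.26 (SE 0.21). These 3 were the genes of the list called over 2-fold.

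Smaller but precise changes were seen in abundant genes of the list. ANXA2, which with S100A10 binds tissue-type activator and plasminogen at the cell surface, had 28200, 28119 and 28303 normalized counts in GFP and 41982, 42099 and 41762 in the T-MGM-labelled libraries, a log2 fold change of 0.57. S100A10 itself changed by only 0.07 (adjusted p of 0.0151 in DESeq2), and by 0.03 after correction for GC content and length. A2M, the broad protease trap alpha-2-macroglobulin, rose by 0.83 (SE 0.02), from 7301 ± 219 to 12971 ± 12.8 normalized counts (SD, n = 3 each). The integrin subunits ITGA5 (0.77) and ITGB5 (0.68) rose as well. The genes that fell were LRP8 and ITGAV, which are named because they are few. Log2 fold changes were -0.31 for LRP8 and -0.15 for ITGAV, which was 0.05 after correction for GC content and length. Vitronectin (VTN), a matrix protein bound by PLAUR, had a mean of 3.16 and 5.54 normalized counts, and thrombomodulin (THBD) and the fibrinogen chain genes FGA, FGB and FGG had at most 3 counts in any library.

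Proteases that serpins inhibit moved in both directions. Of 41 listed, 12 were tested, 3 rose and 4 fell, where 19.2% of all tested genes passed in each direction. CTSK, the collagen-degrading cathepsin K, had 94.7, 99.6 and 69.7 normalized counts in GFP and 259, 238 and 296 in the T-MGM-labelled libraries (1.59 on the log2 scale with an SE of 0.17, adjusted p = 1.05e-19 by DESeq2). FURIN, a target of SERPINB8, rose by 0.55 and the complement protease gene C1S, a target of SERPING1, by 0.63. CTSL, or cathepsin L, had 2252, 2344 and 2361 against 1327, 1256 and 1336 normalized counts and fell by 0.83 on the log2 scale (SE 0.05), CASP8 fell by 0.42 (SE 0.05) and CTSH, or cathepsin H, which is named because few fell, by 0.34, a change that did not pass without GFP replicate 1, GFP replicate 2, T-MGM replicate 1 or T-MGM replicate 3. MASP1 was called lower with 5, 8 and 6 counts in GFP and 2, 0 and 0 in the T-MGM-labelled libraries (DESeq2 adjusted p of 0.0334), a call that 5 of the 6 fits without 1 library did not make. SERPING1 itself had 5, 5 and 3 against 1, 0 and 3 counts. ELANE, CTSG and F2, which encode the classical targets of SERPINA1, SERPINA3 and SERPIND1, had at most 3 counts in any library.

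Among the enzymes and chaperones that act on procollagen beside SERPINH1, 17 of 18 genes were tested, 12 rose and 2 fell, where 19.2% of all tested genes passed in each direction and 46.3% of those averaging at least 10 normalized counts passed in either. The median log2 fold change was 0.28, and TMEM38B (-0.50) and MIA3 (-0.26) were the genes that fell, named because they are few. On log2(TPM + 1), with low genes left out, 7 rose and 3 fell. P3H2, a prolyl hydroxylase, had 58.8, 67.1 and 110 normalized counts in GFP and 427, 412 and 387 in the T-MGM-labelled libraries, a log2 fold change of 2.38 (SE of 0.16, adjusted p = 4.54e-46 by DESeq2), the only one of the list over 2-fold. PLOD2, a lysyl hydroxylase, rose by 0.72, P4HA2 by 0.47, the cyclophilin gene PPIB by 0.33 and P4HB by 0.28, all with groups that did not overlap. These 5 were named for their large test statistics, so a smaller log2 change of SERPINH1, 0.10, does not place it within the list. PLOD3 (0.02) and P3H1 (-0.0025), which did not pass, lay below it, as did the 2 genes that fell. The other tested genes lay above it. Among markers of other cell types, fibroblast genes such as COL1A1, LUM and PDGFRA also rose, 4 of the 6 tested of 8 listed at an adjusted p of 0.05 (19.2% of all tested genes rose), with a summed level of 4.39 to 4.94 TPM in GFP and 5.50 to 7.33 TPM in the T-MGM-labelled libraries and COL3A1 at or under 3 counts. Leukocyte and endothelial markers summed to at most 1.31 and 0.37 TPM, and the leukocyte marker LYZ was called lower (-1.32). Keratinocyte markers summed to 20.4 to 21.9 TPM in GFP and 19.6 to 21.3 TPM in the T-MGM-labelled libraries. Of these only KRT10 was tested, and it did not pass. The part of such cells or states in these results was not tested.

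**Figure D5:**
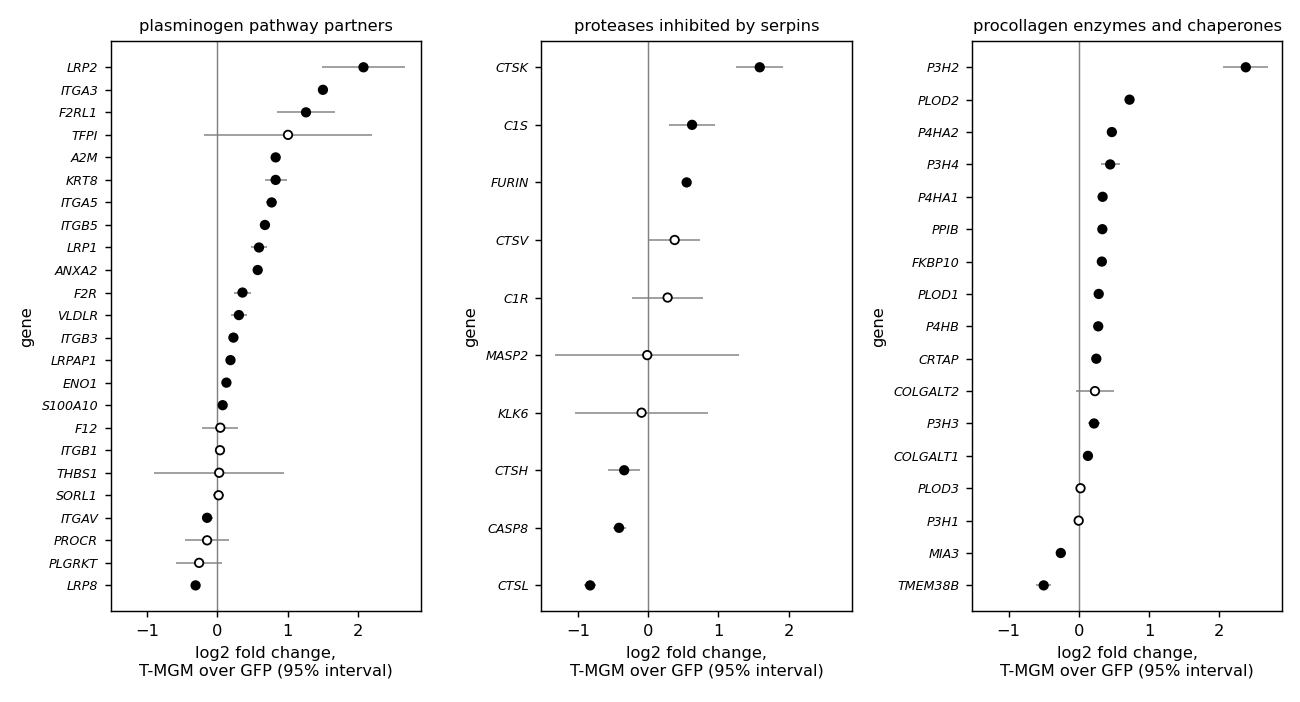
Log2 fold change (T-MGM over GFP) with 95% intervals for listed genes that averaged at least 10 normalized counts, among plasminogen pathway partners, proteases inhibited by serpins and procollagen enzymes and chaperones; filled circles have an adjusted p at or under 0.05. LRP2 (2.08), CTSK (1.59) and P3H2 (2.38) lie highest in their panels, and LRP8 (-0.31), CTSL (-0.83) and TMEM38B lie lowest.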

How the data were processed

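The authors trimmed reads with cutadapt 1.8.1, aligned them to GRCh38 with STAR 2.7.7a (per the labels) and used featureCounts on uniquely mapped reads. Deposited counts are whole, unscaled numbers for each gene and library. The gene annotation was not given in the sources used here. The deposited TPM values were made by the authors with RSEM 1.3.0 and served for levels per length and for alternatives.

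Counts were fitted over all genes with DESeq2 1.42.0 in R 4.3.3 (group as the only term, 2-sided Wald test, no shrinkage, independent filtering at 0.05), the test the study's methods name. A gene was called at an adjusted p at or under 0.05 and over 2-fold. An undefined adjusted p was kept undefined. Genes were named if their mean normalized count was at least 10; from each list, called genes and the 5 with the largest absolute Wald statistic were named. Members and lists were chosen with earlier results of these data known. Positions are from GENCODE release 44, which held 99.4% of the gene identifiers, and all 37 members described; 1 gene of the family and 1 of the pathway list are not reported here.

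Alternatives were edgeR 4.0.16, other scalings and filters, the replicate number as a term, leaving out each library, lowess offsets for GC content and length, shrunken folds, a test against a log2 fold change of 1, and limma 3.58.1 on log2(TPM + 1) or log2(TPM + 0.1). Simulated data were used to test the DESeq2 fit with and without the replicate number, edgeR and limma on log2(TPM + 0.1). The other alternatives were not tested in this way.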

Additional observations from a re-analysis of the deposited data

How the results depend on the processing

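The 2 calls over 2-fold, SERPINA1 and SERPIND1, were 2 to 3 when each library was left out and were kept in every one of those fits. They were 2 with the replicate block, GC and length correction (with or without the block), total counts, the count filter, no independent filtering, edgeR, shrunken folds and log2(TPM + 0.1), and 3 with TMM factors, which added SERPINF1. With limma on log2(TPM + 1), filtered or not, 0 were called (0 at an unadjusted p under 0.05 as well), a pseudocount that compresses low genes by construction. Against a log2 fold change of 1 in DESeq2, 0 were called (2 at an unadjusted p under 0.05); edgeR's test against 0 called 2.

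The 10 genes at an adjusted p of 0.05 were 10 to 11 with a library left out, 10 with the replicate block, 7 on unfiltered log2(TPM + 1) and 0 against a log2 fold change of 1 (2 unadjusted). In that last test pathway partners fell from 17 to 2, proteases from 7 to 0 (1 unadjusted) and procollagen genes from 14 to 1; the last were 8 on unfiltered log2(TPM + 1). With a library left out these 3 lists gave 16 to 17, 5 to 6 and 14.

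Signs turned in TPM values (plus 0.1, plus 1, plus 1 unfiltered) for SERPINH1 (-0.067, -0.066 and -0.066), SERPINB1 (-0.14, -0.13 and -0.13) and SERPINB8 (-0.068, -0.052 and -0.052), where the median gene also lay lower. SERPINB2 turned on unfiltered TPM (-0.033), with total counts (-0.0064), with the replicate block (-0.21, or -0.11 with GC correction) and over a range of -0.85 to 0.41 with a library left out; the cause was not tested. Same-numbered libraries did not deviate together (Pearson's r of -0.058 to 0.029 over 12654 genes, with 1 of 6 libraries closest to its own number). With 3 libraries per group such correlations cannot show whether same-numbered libraries were handled together, and this was not tested.

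Depth limits the low genes most. No fold was given under 10 normalized counts, and the 95% limits of SERPINB2 and SERPINI1 extend beyond a 2-fold change.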
